A study of Mus musculus with 8 samples.

Results

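The p53 pathway was followed in the ileum of irinotecan-treated mice through 36 genes: Trp53 itself, its regulators, and genes known as its targets, with the BCL2 family left out. The members were taken by gene symbol from the deposited table, in which each of the 36 had exactly 1 row among 55487 genes. Bulk RNA from the ileum had been sequenced as strand-specific poly(A) libraries from 4 Gsdme-deficient mice (genotype Gsdme-/-, here Gsdme_KO) and 4 wild-type mice (genotype Gsdme+/+, here WT). Gsdme encodes gasdermin E, a protein that forms membrane pores after caspase cleavage, and the series was designed to compare the ileal transcriptome of these genotypes under irinotecan. Every mouse in both groups received irinotecan, an inhibitor of topoisomerase I, and untreated mice were not analysed here. The values therefore describe a genotype difference under treatment and not an induction by the drug. The sources used here do not give strain, age, dose, the time after dosing or the way the Gsdme allele was made.

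p53 is a transcription factor that is held low by constant degradation and is stabilised when DNA is damaged, for instance when topoisomerase I is trapped on the template. Once stable, it binds paired decamer motifs near its target genes and raises their transcription. Its targets include Mdm2, whose product marks p53 for degradation and so closes a feedback loop, and genes for cell cycle arrest, apoptosis, metabolic control and DNA repair. In the intestine the crypts are known for strong p53 responses to radiation and cytotoxic drugs. Because p53 is controlled mainly as a protein, the level of Trp53 RNA does not measure its activity, and its target genes are the usual readout in RNA data.

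The libraries held 15617407 to 23437343 reads in genes, and values are normalized counts unless stated, that is reads divided by 1 size factor per library. Gsdme had 113 (KO4), 187 (KO5), 634 (KO7) and 464 (KO8) normalized counts in Gsdme_KO, against 3376 (WT3), 2169 (WT5), 3164 (WT7) and 2696 (WT8) in WT, with no overlap between genotypes (log2 difference -3.32, two-sided exact permutation p = 0.0286, the smallest that 4 against 4 libraries can give). Over all tested genes the adjusted p of Gsdme was 0.786 in limma and 0.812 in edgeR, and it was called by DESeq2 (adjusted p = 2.3e-07) and by limma without KO4 and KO5 (adjusted p = 0.0275). With all 8 libraries limma and edgeR thus did not call even the targeted gene, so a member that was not called may still differ. The ileal bile acid genes were abundant in all libraries: Fabp6 had 14739 to 57087 normalized counts in Gsdme_KO, against 17519 to 72985 in WT, and Slc10a2 had 7983 to 24892 in Gsdme_KO, against 18982 to 25319 in WT. A pair of Gsdme_KO libraries, KO4 and KO5, differed from the remaining 6 in cell type markers. The summed level of 10 B cell and follicle markers was 10097 (KO4), 5755 (KO5), 319 (KO7) and 246 (KO8) in Gsdme_KO, against 211 to 320 in WT, with 10 of 10 markers positive in log2 fold change and Blk and Cr2 at 0 in at least 1 library. The summed level of 16 mature enterocyte markers was 172576 (KO4), 264793 (KO5), 620621 (KO7) and 458707 (KO8) in Gsdme_KO, against 357734 to 623560 in WT, with 15 of 16 markers negative and Lct at 0 in at least 1 library. Fewer cells of a type and less RNA per cell cannot be told apart in such bulk samples. For this reason the member values are also given without KO4 and KO5.

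None of the 36 p53 pathway genes differed between the genotypes at a Benjamini-Hochberg adjusted p under 0.05 in limma, which tested the 16352 genes averaging 10 or more normalized counts, all 36 members among them. The members called were 0 higher and 0 lower, where the background over all tested genes was 0.00612% called higher and 0% called lower. At an unadjusted p under 0.05, limma listed 1 member higher, Ddit4, and 0 lower, against a background of 2.61% higher and 1.77% lower. The tests on recovered reads also called 0 members in either direction, where edgeR called 0.00612% of all tested genes higher and 0% lower and DESeq2 0.0489% higher and 0.00612% lower. At an unadjusted p under 0.05, edgeR listed 1 member higher and 0 lower against a background of 4.43% and 1.58%, and DESeq2 1 higher and 0 lower against 5.12% and 1.82%. In no member did the 4 Gsdme_KO libraries lie entirely above or below the 4 WT libraries, where 1.31% of all tested genes lay above and 1.19% below.

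Log2 fold changes, taken as Gsdme_KO minus WT on the log2(normalized count + 1) scale, were positive in 16 members and negative in 20, with a median of -0.04, beside 0.0026 over all tested genes. They ran from -0.49 for Sesn1 to 0.47 for Ddit4. A fold change beyond 0.5 in either direction was seen in 0 members and in 12.2% of all tested genes, a group that also holds genes of much lower counts. The 95% interval of the fold change, from limma and not corrected for the number of genes, stayed within 1 log2 unit of zero in 33 of the 36 members and within 0.5 in 24. The 3 wider ones were Ptprv, Dcxr and Sesn1. The interval was -0.29 to 0.43 for Cdkn1a, -0.43 to 0.34 for Mdm2 and -0.28 to 0.16 for Ccng1.

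**Figure D1:**
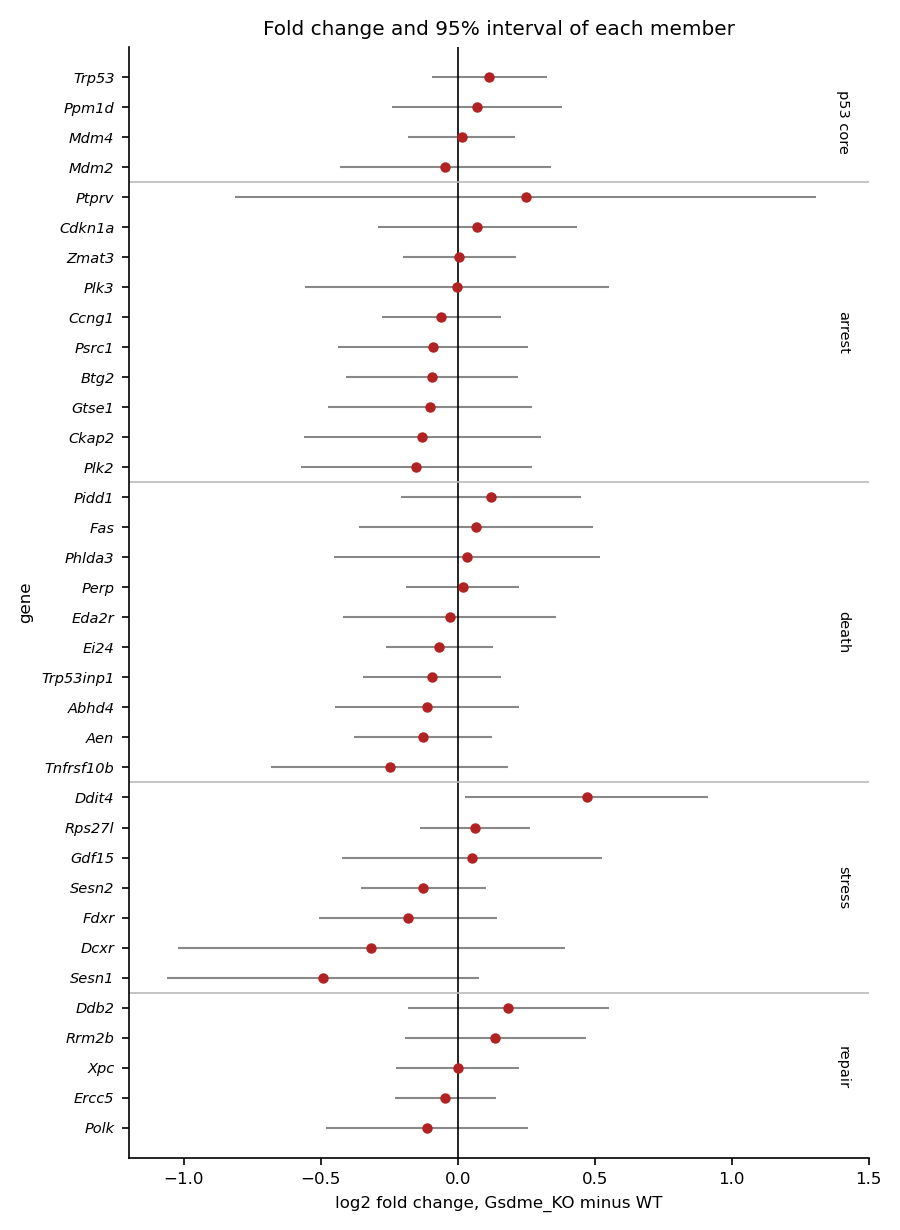
Log2 fold change of each p53 pathway gene, Gsdme_KO minus WT (horizontal axis, log2 units; points), with its 95% limma interval (bars), grouped by role and sorted within each group. The interval of Ddit4 alone lies wholly on one side of zero, and Ptprv, Dcxr and Sesn1 have the widest intervals.

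**Figure D2:**
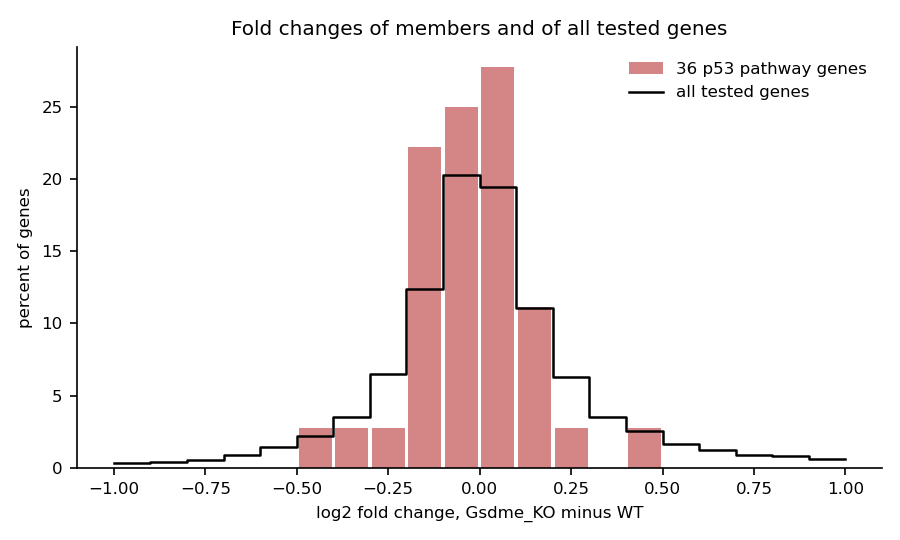
Percent of genes (vertical axis) by log2 fold change, Gsdme_KO minus WT, in bins of 0.1 log2 units (horizontal axis), for the 36 p53 pathway genes (bars) and for all 16352 tested genes (line). The members lie between -0.49 and 0.47, and 3.46% of all tested genes fall outside the plotted range.

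Sequence near the gene starts was searched for single decamers, of which p53 is known to bind a pair. A single decamer is not the paired motif. The p53 decamer consensus, a palindrome that reads the same on both strands, was searched by script in RefSeq promoters of build GRCm38.p6, each covering 250 bases before to 50 bases after a gene start. Promoters were at hand for 28 of the 36 members and for 27025 genes in all. At least 1 decamer was present in 13 of these 28 members (46.4%) and in 9.55% of all genes, where a gene counts if any of its promoters holds one, since a gene can have several RefSeq starts. A pair of exact decamers with at most 13 bases between them was found in Cdkn1a alone among the members, and in 0.074% of all genes. Only exact matches to the consensus were counted, so pairs in which a decamer departs from it by 1 base were missed. The stretches shown are from the p53 gene, its feedback ligase, the cell cycle inhibitor with the paired exact decamers, and 3 further target genes described below. Capitals mark exact matches to the decamer. In Cdkn1a the bases right after the downstream decamer also match the consensus except at 1 base, and are not in capitals.
Trp53: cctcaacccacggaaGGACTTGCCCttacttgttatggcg
Mdm2: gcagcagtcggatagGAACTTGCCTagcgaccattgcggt
Cdkn1a: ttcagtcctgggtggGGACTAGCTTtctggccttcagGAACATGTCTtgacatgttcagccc
Ccng1: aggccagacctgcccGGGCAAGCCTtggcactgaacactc
Ei24: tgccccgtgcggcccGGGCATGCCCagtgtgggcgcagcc
Sesn1: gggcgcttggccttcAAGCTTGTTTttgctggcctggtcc
The Trp53 stretch lies at chr11:69580269-69580308 (plus strand), Mdm2 at chr10:117710920-117710959 (minus strand) and Cdkn1a at chr17:29090891-29090952 (plus strand), where 12 bases separate the paired decamers. Ccng1 lies at chr11:40755447-40755486 (minus strand), Ei24 at chr9:36797320-36797359 (minus strand) and Sesn1 at chr10:41887251-41887290 (plus strand). Counted from the RefSeq start of each promoter, the decamer begins at -75 in Trp53, -186 in Mdm2, -73 and -51 in Cdkn1a, -185 in Ccng1, -10 in Ei24 and -173 in Sesn1, whose stretch precedes an alternative start inside the gene and not its first start. Cdkn1a had 2 RefSeq promoters and its pair was counted from 1 of their starts, while the start mainly used was not examined. The other members with a decamer were Abhd4, Aen, Ckap2, Gtse1, Polk, Ppm1d and Rps27l. Members with a decamer had a median log2 fold change of -0.07 (4 positive, 9 negative, n = 13) and members with a promoter but no decamer one of -0.03 (6 positive, 9 negative, n = 15). A match describes the letters in this window and is not evidence of binding, and distal or intronic sites were not searched.

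Trp53 and the 3 genes of its feedback loop were not called, with 3 positive and 1 negative log2 fold changes. Trp53 had 1172 (KO4), 1208 (KO5), 1086 (KO7) and 1175 (KO8) normalized counts in Gsdme_KO, against 1008 (WT3), 955 (WT5), 1123 (WT7) and 1216 (WT8) in WT. The Gsdme_KO libraries lay within the WT range, and the means gave a log2 fold change of 0.11 (limma SE 0.0926, adjusted p = 0.849). Mdm2, the ubiquitin ligase that targets p53 and is itself a p53 target, had 2118 (KO4), 1911 (KO5), 1340.2 (KO7) and 1353 (KO8) normalized counts in Gsdme_KO, against 1737 (WT3), 1845 (WT5), 1422 (WT7) and 1827 (WT8) in WT. KO4 and KO5 were above all WT libraries while KO7 and KO8 were below them, so the group means nearly coincided, at 1681 ± 395 normalized counts in Gsdme_KO and 1708 ± 196 in WT (SD, n = 4 each), with a log2 fold change of -0.05 (limma SE 0.169, adjusted p = 0.961). Mdm4, a relative of Mdm2 that binds and silences the p53 activation domain, had 2461 (KO4), 2259 (KO5), 2105 (KO7) and 2149 (KO8) normalized counts in Gsdme_KO, against 2014 (WT3), 2276 (WT5), 2182 (WT7) and 2420.2 (WT8) in WT. Its groups overlapped throughout, with a log2 fold change of 0.01 (limma SE 0.0858, adjusted p = 0.979). Ppm1d, the phosphatase Wip1 that switches off p53 and the damage kinases, had 198 ± 14.7 normalized counts in Gsdme_KO and 190.0 ± 29.0 in WT (SD, n = 4 each) and a log2 fold change of 0.07 (limma SE 0.136, adjusted p = 0.929).

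**Figure D3:**
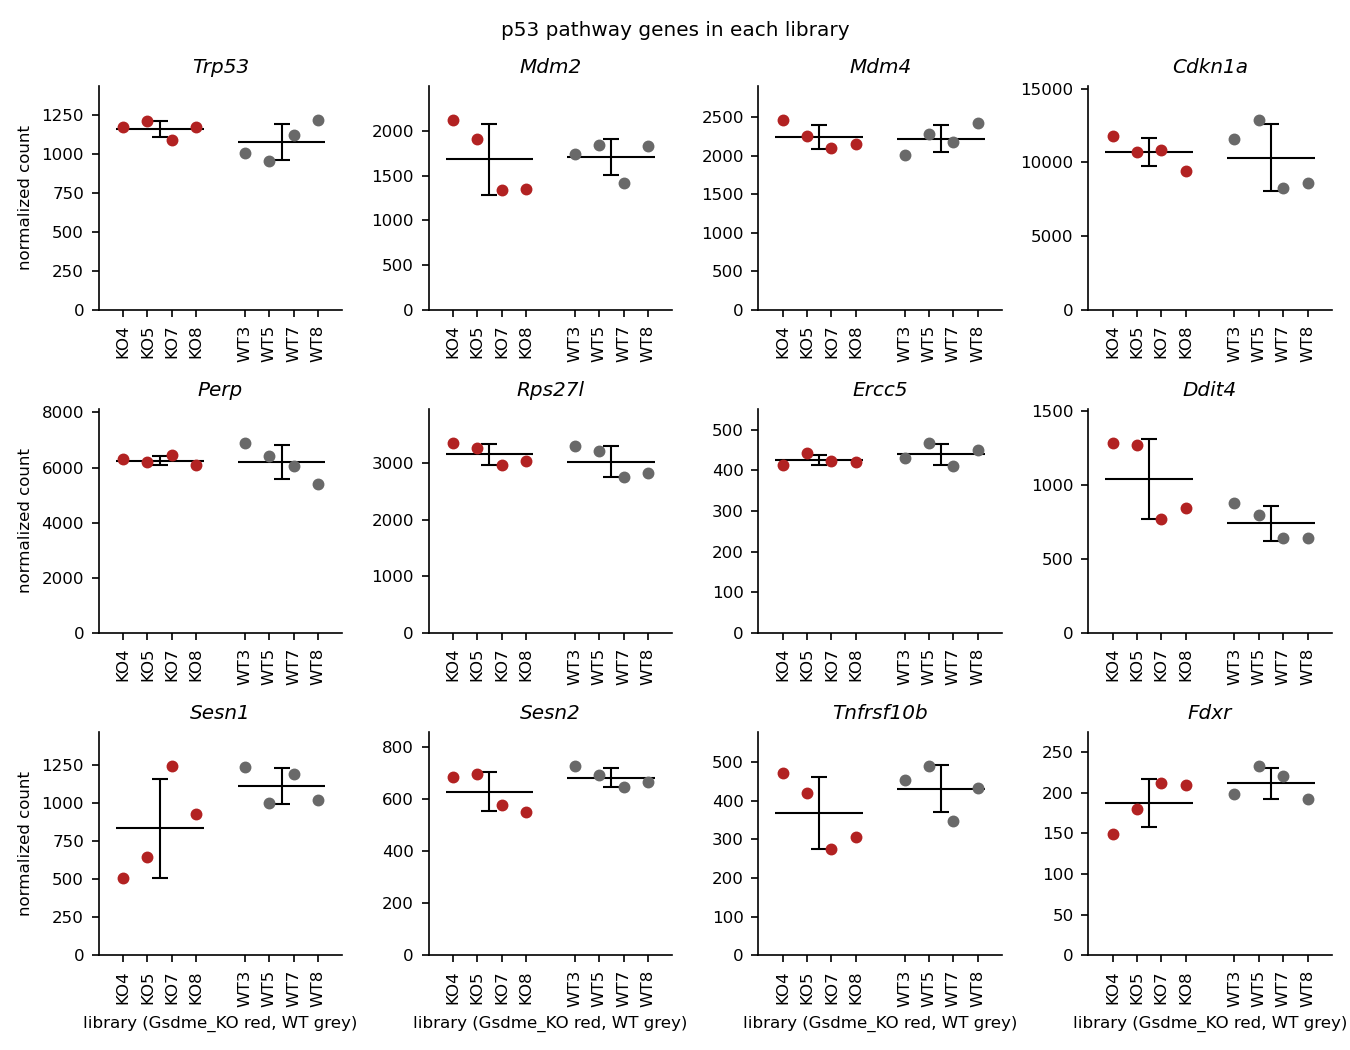
Normalized count (vertical axes, from 0) of 12 p53 pathway genes in each Gsdme_KO and WT library (points; library names on the horizontal axes), with the mean and SD of 4 libraries per genotype (horizontal bars and whiskers). In all 12 genes the genotypes overlap. KO4 and KO5 are both above KO7 and KO8 in Mdm2, Mdm4, Rps27l, Ddit4, Sesn2 and Tnfrsf10b, and both below them in Sesn1 and Fdxr.

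Genes for cell cycle arrest and growth control numbered 10, 3 with positive and 7 with negative log2 fold changes, with a median of -0.07 and none called. Cdkn1a encodes p21, the inhibitor of cyclin-dependent kinases through which p53 stops the cycle, and was the most abundant of all 36 members in normalized counts. It had 11772 (KO4), 10689.6 (KO5), 10834 (KO7) and 9446 (KO8) normalized counts in Gsdme_KO, against 11593 (WT3), 12865 (WT5), 8236 (WT7) and 8609.9 (WT8) in WT. The 4 Gsdme_KO values lay inside the WT range, whose own libraries differed more among themselves, and the comparison gave a log2 fold change of 0.07 (limma SE 0.16, adjusted p = 0.937). Ccng1, which encodes cyclin G1, a partner of phosphatase 2A, varied little, with 6488 ± 433 normalized counts in Gsdme_KO and 6775 ± 629 in WT (SD, n = 4 each). Btg2, an antiproliferative gene, had 3398 ± 419 normalized counts in Gsdme_KO and 3640.5 ± 566 in WT (SD, n = 4 each). Zmat3, which encodes an RNA-binding zinc finger protein, had 1261 ± 64.4 normalized counts in Gsdme_KO and 1259.8 ± 125 in WT (SD, n = 4 each), a fold change of 0.01 log2 units.

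The polo-like kinase genes Plk2 and Plk3, which act in stress and cell cycle control, differed between mice of the same genotype. Plk2 had 958 (KO4), 888 (KO5), 646 (KO7) and 615 (KO8) normalized counts in Gsdme_KO, against 718 (WT3), 916 (WT5), 732 (WT7) and 1069 (WT8) in WT. WT8 was the highest and KO8 the lowest, and the groups overlapped. Plk3 had 845 (KO4), 638 (KO5), 577 (KO7) and 388 (KO8) normalized counts in Gsdme_KO, against 612 (WT3), 801 (WT5), 522 (WT7) and 476 (WT8) in WT, so that KO4 and KO8, both Gsdme_KO, were its highest and lowest libraries. The microtubule-associated proteins encoded by Gtse1, Psrc1 and Ckap2 act in mitosis, and Gtse1 is known in human cells to restrain p53 in the second gap phase. Gtse1 had 566 ± 123 normalized counts in Gsdme_KO and 601 ± 86.2 in WT (SD, n = 4 each), Psrc1 had 511 ± 62.0 normalized counts in Gsdme_KO and 549 ± 114 in WT (SD, n = 4 each) and Ckap2 had 470.2 ± 40.8 normalized counts in Gsdme_KO and 528 ± 140.0 in WT (SD, n = 4 each). The summed level of 10 proliferation markers was 9676 to 10989 in Gsdme_KO and 7412 to 13979 in WT, with WT8 the highest and WT5 the lowest. WT8 was also the highest library for Psrc1 and Ckap2, and WT5 the lowest for Ckap2. Psrc1 was lowest in KO7, and Gtse1 was highest in KO5 and lowest in KO7. The part of proliferating cells in these values was not tested. Ptprv, a receptor-type phosphatase linked to p53 arrest in mice, was low, with 8 to 50 reads per library and 25.8 ± 14.1 normalized counts in Gsdme_KO and 21.6 ± 10.4 in WT (SD, n = 4 each).

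Death receptor and apoptosis genes also numbered 10, with 4 positive and 6 negative fold changes, a median of -0.05 and none called. Perp, a tetraspan membrane protein of desmosomes and an apoptosis effector, was the most abundant of them and had 6298 (KO4), 6194 (KO5), 6438 (KO7) and 6079 (KO8) normalized counts in Gsdme_KO, against 6893 (WT3), 6419 (WT5), 6065 (WT7) and 5412 (WT8) in WT. The Gsdme_KO libraries spanned a narrower range than the WT libraries and lay within it, with a log2 fold change of 0.02 (limma SE 0.0911, adjusted p = 0.972). Tnfrsf10b, which encodes the mouse TRAIL death receptor, had 473 (KO4), 421 (KO5), 275 (KO7) and 307 (KO8) normalized counts in Gsdme_KO, against 453 (WT3), 491 (WT5), 348 (WT7) and 433 (WT8) in WT. KO7 and KO8 were the lowest of the 8 libraries, whereas KO4 and KO5 lay among the WT values, and the comparison gave a log2 fold change of -0.25 (limma SE 0.19, adjusted p = 0.849). Fas, the receptor for Fas ligand, had 471 (KO4), 306 (KO5), 256 (KO7) and 258 (KO8) normalized counts in Gsdme_KO, against 298 (WT3), 297 (WT5), 292 (WT7) and 305 (WT8) in WT. The WT libraries were within 292 to 305, KO4 alone was well above them, and KO7 and KO8 were below, with a log2 fold change of 0.07 (limma SE 0.188, adjusted p = 0.949). The T cell marker sum was 2583 (KO4), 1859 (KO5), 992 (KO7) and 1042 (KO8) in Gsdme_KO, against 589 to 1080 in WT. Of the T cell markers 10 of 10 were positive in log2 fold change, and none was at 0 in any library. In KO5 this sum was above all WT libraries, while Fas was 306, beside 305 in WT8. Lymphocytes are known to express Fas, and their part in the Fas values was not tested.

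The remaining death genes showed no separation. Eda2r, the X-linked ectodysplasin A2 receptor gene, had 259 ± 40.9 normalized counts in Gsdme_KO and 266 ± 54.2 in WT (SD, n = 4 each). Pidd1, the scaffold that activates caspase-2, had 275 ± 43.6 normalized counts in Gsdme_KO and 252 ± 32.5 in WT (SD, n = 4 each), and Aen, an apoptosis-enhancing nuclease, had 616 ± 55.7 normalized counts in Gsdme_KO and 675 ± 81.0 in WT (SD, n = 4 each). Phlda3, an inhibitor of Akt, ranged from 655 to 1084 in Gsdme_KO and from 599 to 1044 in WT. Trp53inp1, a stress protein that promotes p53 function and autophagy, had 1886 ± 265 normalized counts in Gsdme_KO and 2003 ± 163 in WT (SD, n = 4 each). Ei24, an endoplasmic reticulum protein, had 2805 ± 239.6 normalized counts in Gsdme_KO and 2936 ± 161 in WT (SD, n = 4 each), and Abhd4, a phospholipid hydrolase, had 1823 ± 345 normalized counts in Gsdme_KO and 1946 ± 183 in WT (SD, n = 4 each), its lowest library being KO4 at 1342.

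The 7 stress, metabolism and secreted targets, 3 positive and 4 negative with none called, held the 2 members with the largest fold changes in either direction. Ddit4 encodes REDD1, an inhibitor of the growth kinase complex mTORC1 that is also induced by hypoxia and glucocorticoids. It had 1286 (KO4), 1268 (KO5), 772 (KO7) and 846 (KO8) normalized counts in Gsdme_KO, against 877 (WT3), 799 (WT5), 643 (WT7) and 641 (WT8) in WT. KO4 and KO5 were above every other library, KO7 and KO8 lay within the WT range, and the comparison gave a log2 fold change of 0.47 (limma SE 0.195, adjusted p = 0.849), with an unadjusted limma p of 0.0399. That unadjusted p was above 0.05 without any 1 of KO4, KO5, WT5, WT7 or WT8, and without KO4 and KO5 together the log2 fold change was 0.14. Sesn1 and Sesn2 encode sestrins, which also restrain mTORC1. Sesn1 had 511 (KO4), 647 (KO5), 1244 (KO7) and 930.0 (KO8) normalized counts in Gsdme_KO, against 1233 (WT3), 1002 (WT5), 1192 (WT7) and 1017 (WT8) in WT. KO4 and KO5 were the lowest libraries, KO7 was the highest, and the comparison gave a log2 fold change of -0.49 (limma SE 0.25, adjusted p = 0.849); without KO4 and KO5 it was -0.04. Sesn2 differed from this pattern and had 688 (KO4), 698 (KO5), 579.9 (KO7) and 552 (KO8) normalized counts in Gsdme_KO, against 729.6 (WT3), 692 (WT5), 649 (WT7) and 665 (WT8) in WT, with KO7 and KO8 below every other library and a log2 fold change of -0.13 (limma SE 0.101, adjusted p = 0.849).

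Fdxr and Dcxr, like Sesn1, were lowest in KO4 and KO5. Fdxr, the mitochondrial ferredoxin reductase, had 149 (KO4), 180.2 (KO5), 212 (KO7) and 209.9 (KO8) normalized counts in Gsdme_KO, against 199 (WT3), 233 (WT5), 221 (WT7) and 193 (WT8) in WT, with a log2 fold change of -0.18 (limma SE 0.143, adjusted p = 0.849). Dcxr, a dicarbonyl and xylulose reductase, had 359 (KO4), 527 (KO5), 1008 (KO7) and 716 (KO8) normalized counts in Gsdme_KO, against 854 (WT3), 998 (WT5), 700.3 (WT7) and 548 (WT8) in WT, with a log2 fold change of -0.32 (limma SE 0.311, adjusted p = 0.859). Its libraries spanned a 2.81-fold range, and KO7 was the highest. For Sesn1, Fdxr and Dcxr, KO4 and KO5 were below all 6 other libraries, which makes 8.33% of the members, beside 13.5% of all tested genes. For Mdm2, Fas, Gdf15 and Ddit4 they were above all 6, 11.1% of the members, beside 14.1% of all tested genes. Fas was included by a narrow margin, with 305.6 in KO5 against 305.4 in WT8. Like Sesn1, Fdxr and Dcxr, the mature enterocyte sum was lowest in KO4 and KO5. The part of enterocyte content in these values was not tested. Gdf15, a secreted stress cytokine that signals to the brainstem, had 147 (KO4), 140.4 (KO5), 90.2 (KO7) and 88.5 (KO8) normalized counts in Gsdme_KO, against 102 (WT3), 114 (WT5), 96.3 (WT7) and 127 (WT8) in WT, with KO4 and KO5 at the top and KO7 and KO8 at the bottom. Rps27l, a ribosomal protein gene regulated by p53, had 3362 (KO4), 3279 (KO5), 2969 (KO7) and 3038 (KO8) normalized counts in Gsdme_KO, against 3316 (WT3), 3214 (WT5), 2764 (WT7) and 2834 (WT8) in WT. Its groups overlapped, with a log2 fold change of 0.06 (limma SE 0.0885, adjusted p = 0.901). Rps27l is close in coding sequence to its paralog Rps27, so its own level carries that uncertainty.

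The nucleotide supply and DNA repair targets numbered 5, 3 positive and 2 negative, and none was called. Ercc5, the endonuclease of nucleotide excision repair, was the most abundant, had 415 (KO4), 443 (KO5), 424 (KO7) and 421 (KO8) normalized counts in Gsdme_KO, against 430.1 (WT3), 468 (WT5), 410.4 (WT7) and 449 (WT8) in WT, and had the smallest variation of all members, a coefficient of variation of 4.52% over the 8 libraries. Xpc, a damage sensor of the same pathway, had 276 ± 7.45 normalized counts in Gsdme_KO and 277 ± 25.5 in WT (SD, n = 4 each). Rrm2b, the p53-inducible ribonucleotide reductase subunit, had 359 (KO4), 256 (KO5), 257 (KO7) and 249 (KO8) normalized counts in Gsdme_KO, against 267 (WT3), 263 (WT5), 215 (WT7) and 267 (WT8) in WT. KO4 was above all others and WT7 below all others, with a log2 fold change of 0.14 (limma SE 0.146, adjusted p = 0.871). Polk, a translesion polymerase, had 272 ± 36.6 normalized counts in Gsdme_KO and 296 ± 57.8 in WT (SD, n = 4 each). Ddb2, which recognises ultraviolet lesions, had 124 ± 10.2 normalized counts in Gsdme_KO and 110.0 ± 19.1 in WT (SD, n = 4 each) and a log2 fold change of 0.18 (limma SE 0.162, adjusted p = 0.849). By GENCODE M21, 652 bases of Ddb2 exons (23.8%) overlap exons of Acp2 on the opposite strand, and Acp2 averaged 947 normalized counts against 117 for Ddb2. The strand setting of the counting is unknown here, so Ddb2 reads and Acp2 reads may not be separable. For the other 5 members with antisense exon overlap, Cdkn1a, Plk3, Ei24, Ptprv and Rrm2b, the partner averaged 0.149 to 6.13 normalized counts.

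The members differed between libraries of the same genotype. Relative to the WT mean of each gene, the members above it numbered 24 (KO4), 28 (KO5), 13 (KO7) and 5 (KO8) in Gsdme_KO, against 18 (WT3), 26 (WT5), 10 (WT7) and 23 (WT8) in WT. Over all tested genes the share above the WT mean was 50.7% to 52.6% in every library. Median deviations of the members, in log2 units, were 0.09 (KO4), 0.06 (KO5), -0.06 (KO7) and -0.12 (KO8) in Gsdme_KO, against -0.01 (WT3), 0.06 (WT5), -0.09 (WT7) and 0.07 (WT8) in WT. KO4 and KO5 were both above KO7 and KO8 in 21 of 36 members (58.3%), beside 28.5% of all tested genes, and both below them in 3 members (8.33%), beside 28.4%. The 21 included Mdm2, Ccng1, Phlda3, Eda2r, Fas, Tnfrsf10b, Plk2, Gdf15 and Aen. The 3 below were Sesn1, Dcxr and Fdxr, and the members in neither set included Cdkn1a, Perp, Btg2 and Trp53inp1. These orders were counted after the values were seen and carry no test, and the members, as targets of 1 factor, are not independent. The median SD between libraries of a genotype was 0.22 log2 units for the members and 0.26 for all tested genes. The latter group also holds genes of much lower counts, and genes of a like level were not compared.

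**Figure D4:**
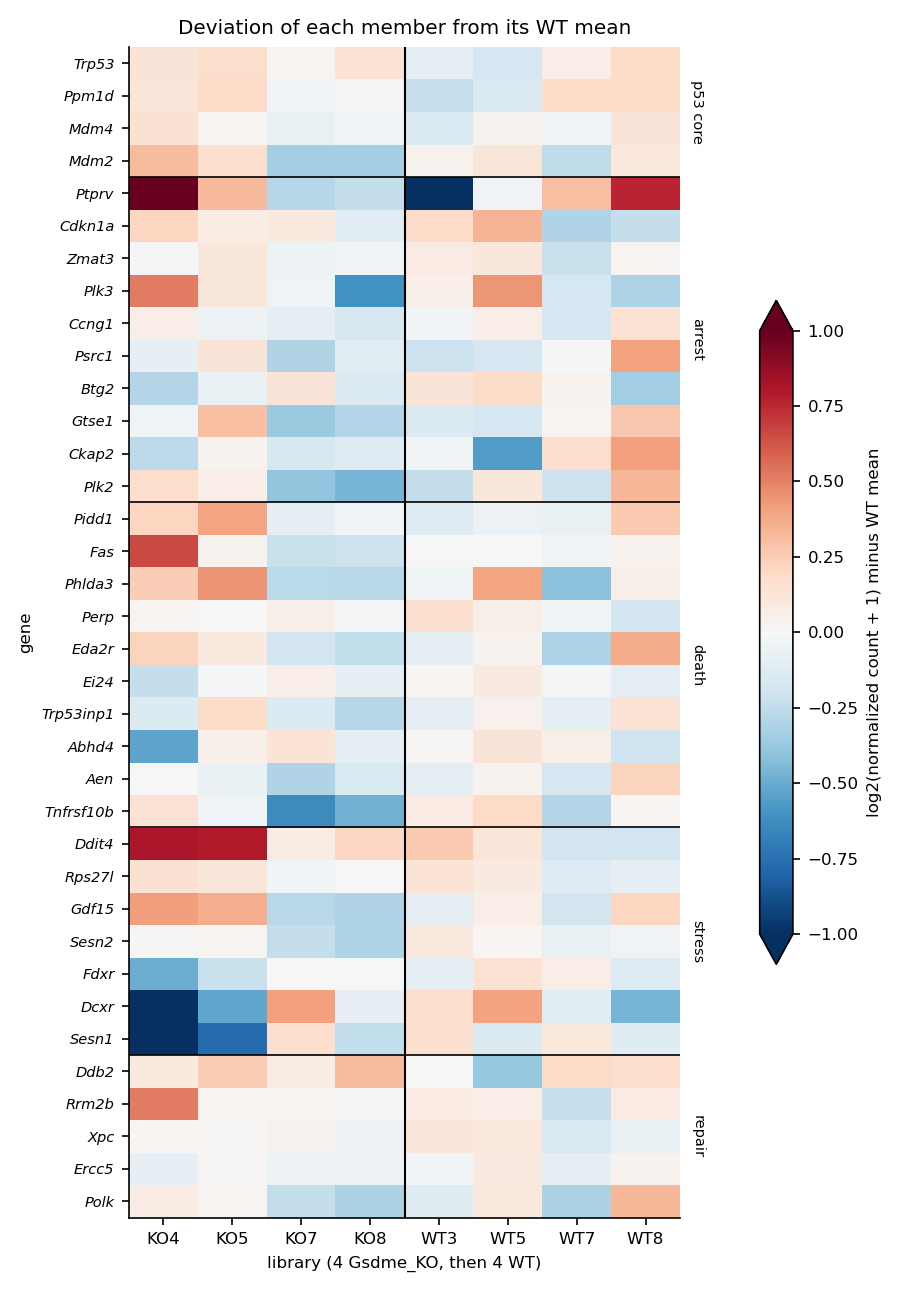
Deviation of each p53 pathway gene (rows, grouped by role) from its WT mean in log2(normalized count + 1) units (colour; red above, blue below, saturating at 1), in 4 Gsdme_KO and 4 WT libraries (columns). KO4 and KO5 are mostly red (24 and 28 of 36 members above the WT mean), KO8 mostly blue (5 of 36), and WT5 and WT8 differ from WT7 in the same way (26 and 23, against 10).

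Leaving out KO4 and KO5 left more of the members with negative values. In 21 of 36 members both were above KO7 and KO8, so the counts below in part restate that order. The members are not independent, and WT7 was also low, with 10 members above the WT mean. With KO7 and KO8 against the 4 WT libraries, log2 fold changes were positive in 8 members and negative in 28, with a median of -0.06, beside 0.0071 over all tested genes, of which 48.0% were negative. At an unadjusted p under 0.05, limma listed 5 members lower and 0 higher, against a background of 1.71% lower and 1.03% higher. The 5 were Tnfrsf10b (log2 fold change -0.56, SE 0.154), Plk2 (-0.43, SE 0.169), Mdm2 (-0.34, SE 0.121), Gtse1 (-0.33, SE 0.140) and Sesn2 (-0.27, SE 0.0976). Each had a limma adjusted p of 0.999, and none was called, where the background called was 0.00617% lower and 0% higher. In 8 members, these 5 with Trp53inp1, Fas and Gdf15, both KO7 and KO8 lay below every WT library, beside 5.94% of all tested genes. In 0 members did both lie above every WT library, beside 5.44%. In KO7 and KO8 the B cell marker sum was 246 to 319, against 211 to 320 in WT. The T cell sum was 992 to 1042 in KO7 and KO8, against 1080 (WT3), 612 (WT5), 657 (WT7) and 589 (WT8) in WT, so both were above all WT libraries but WT3. The enterocyte sum was 458707 to 620621 in KO7 and KO8, against 357734 to 623560 in WT. A sum of 8 myeloid markers was 3844 (KO7) and 4678 (KO8), against 4292 to 6569 in WT, so KO7 was below all WT libraries. KO4 (9470) and KO5 (7002) were above all WT libraries in this myeloid sum. The part of these cell types in the member values was not tested.

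**Figure D5:**
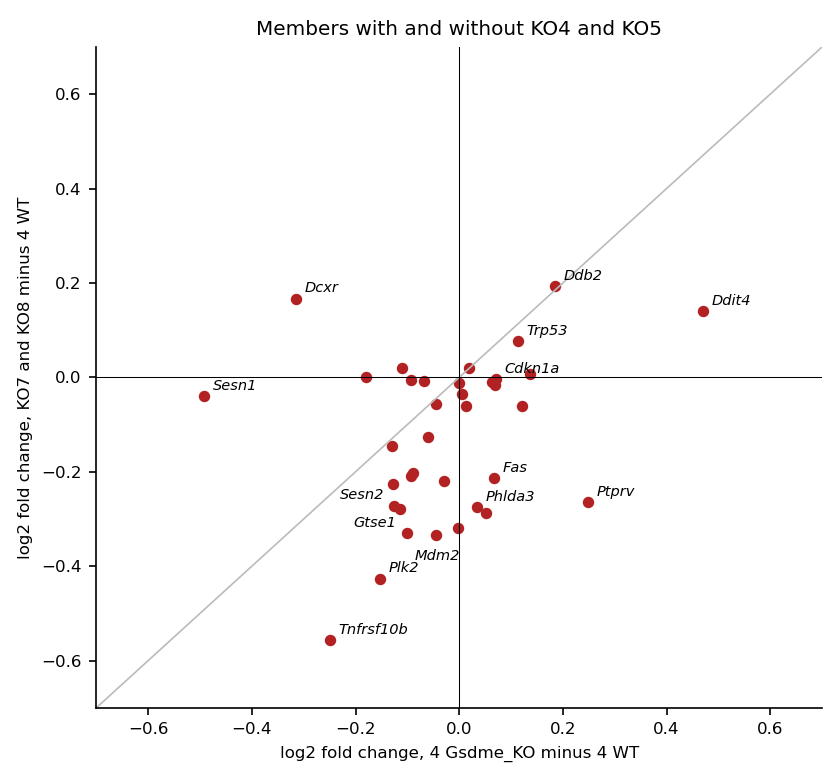
Log2 fold change of each p53 pathway gene from all 4 Gsdme_KO libraries (horizontal axis) and from KO7 and KO8 alone (vertical axis), both against the 4 WT libraries, in log2 units; the grey line marks equal values. Without KO4 and KO5, 28 of 36 genes are below zero, Ddit4 and Sesn1 move towards zero, and Tnfrsf10b is the lowest at -0.56.

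Per length of exon sequence, the members spanned a wide range of levels. Rps27l led with 3875 normalized counts per kb in Gsdme_KO and 3716 in WT. Perp followed with 3203 per kb in Gsdme_KO and 3175 in WT, and Cdkn1a with 3008 in Gsdme_KO and 2906 in WT. Ccng1 was next, at 1847 per kb in Gsdme_KO and 1929 in WT. Mdm2 had 331 per kb in Gsdme_KO and 336 in WT, Trp53 had 287 in Gsdme_KO and 266 in WT, and Mdm4 had 152 in Gsdme_KO and 150 in WT. The lowest were Rrm2b, at 30.7 per kb in Gsdme_KO and 27.7 in WT, and Ptprv, at 3.69 in Gsdme_KO and 3.09 in WT. Exon lengths are unions over GENCODE M21 transcripts, so a gene with long untranslated ends that are rarely used is understated.

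Other genes of the pathway gave the same absence of calls. Among 20 kinases, acetylases, ubiquitin enzymes and other partners that act on p53, 19 were tested. Of these 9 had positive and 10 negative log2 fold changes, with a median of -0.01 and 0 called in either direction. Dyrk2, a kinase of p53, had the smallest unadjusted p of these, with 2102 ± 177 normalized counts in Gsdme_KO and 2331 ± 169 in WT (SD, n = 4 each) and a log2 fold change of -0.15 (limma SE 0.0897, adjusted p = 0.849). Cop1, a ubiquitin ligase for p53, came next, with 1072 ± 99.5 normalized counts in Gsdme_KO and 1179 ± 53.4 in WT (SD, n = 4 each) and a log2 fold change of -0.14 (limma SE 0.0879, adjusted p = 0.849). The p53 relatives were too low to test: Trp63 had 2 to 10 normalized counts in Gsdme_KO, against 0 to 9 in WT, and Trp73 had 0 to 3 in Gsdme_KO, against 2 to 3 in WT. Cdkn2a, which encodes the Mdm2 inhibitor Arf, was also too low, at 2 to 16 in Gsdme_KO and 2 to 21 in WT.

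The proapoptotic BCL2 family targets Bax, Bbc3, Pmaip1 and Bid had 1 positive and 3 negative fold changes and 0 called. Pmaip1, which encodes Noxa, had 1422 ± 395 normalized counts in Gsdme_KO and 1654 ± 235 in WT (SD, n = 4 each) and a log2 fold change of -0.25 (limma SE 0.188, adjusted p = 0.849), and Bbc3, which encodes Puma, had 159 ± 31.1 normalized counts in Gsdme_KO and 179.7 ± 20.4 in WT (SD, n = 4 each) and a log2 fold change of -0.19 (limma SE 0.159, adjusted p = 0.849). Of 31 further target genes 30 were tested, 13 positive and 17 negative, with a median of -0.04 and 0 called. Polh, the translesion polymerase eta, had 177 ± 19.4 normalized counts in Gsdme_KO and 148 ± 19.3 in WT (SD, n = 4 each) and a log2 fold change of 0.26 (limma SE 0.138, adjusted p = 0.849). Dglucy, a mitochondrial glutamate enzyme, had 1060.2 ± 294 normalized counts in Gsdme_KO and 1307 ± 32.4 in WT (SD, n = 4 each) and a log2 fold change of -0.35 (limma SE 0.194, adjusted p = 0.849), with KO4 the lowest library at 671.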

How the data were processed

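Ileal poly(A) RNA-seq libraries of 4 Gsdme_KO and 4 WT mice were compared. The authors deposited a single table of normalized signal, which holds read counts per gene divided by a size factor for each library (0.821 to 1.33). Per the submitters' processing notes, HISAT2, SAMtools, featureCounts (Subread) and DESeq2 were used on GRCm38; no versions or strand setting are given there. Whole reads were recovered: 100% of values in each library were whole multiples of 1 step (tolerance 0.01 reads). Headers number the libraries WT3, WT5, WT7, WT8, KO4, KO5, KO7 and KO8, which cannot be tied to mice 1 to 4 of the labels, so columns were assigned to a genotype only. The closest pair of libraries, WT3 and KO7, had a chi-square per degree of freedom of 12.5, so none was a duplicate.

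Genotypes were compared with limma-trend (limma 3.58.1, R 4.3.3) on log2(normalized count + 1) for genes with a mean of at least 10, with Benjamini-Hochberg adjustment over all 16352 tested genes. Alternatives were pseudocounts of 0.5 and 5, no filter, a mean of at least 50, TMM factors, edgeR 4.0.16 and DESeq2 1.42.0 on recovered reads, each library left out, KO4 and KO5 left out together, and a block on the header number. The recovered reads gave 1 gene higher and 0 lower by edgeR, and 8 higher with 1 lower by DESeq2. The members, gene lists, the rule for the genes named and the alternatives were chosen with earlier results of these data known. Values in every library are given for Trp53, Mdm2, Cdkn1a, the 6 members of smallest unadjusted p and the most abundant member of each role; Plk2, Plk3, Fas, Dcxr, Gdf15 and Rrm2b were added after their values were seen. In the other pathway lists the 2 tested genes of smallest unadjusted p are named, besides genes too low to test. Positions and exon lengths are from GENCODE M21, and promoter sequences from RefSeq (GRCm38.p6).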

Additional observations from a re-analysis of the deposited data

Results flagged for a closer look

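Among the 72 sets of 4 libraries formed by the 36 members, 3 held a library far from the other 3 of its genotype by Dixon's criterion, where chance alone picks out about 1 set in 20. Rrm2b had 359 normalized counts in KO4, against 249 to 257 in the other Gsdme_KO libraries, and 215 in WT7, against 263 to 267 in the other WT libraries. Zmat3 had 1356 in KO5, against 1215 to 1239 in the other Gsdme_KO libraries. Of the 108 sets formed by Gsdme and the other listed pathway genes, 2 were picked out in the same way. Bbc3 had 210.2 in WT7, against 167 to 171 in the other WT libraries, and Ephx1, an epoxide hydrolase gene, had 1972 in WT5, against 1696 to 1705.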

How the results depend on the processing

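No alternative called a member: the count stayed at 0 higher and 0 lower in all 17. The median log2 fold change of the members stayed between -0.09 and 0.02. The spread between single libraries had an SD of 0.09, which is not the error of a difference between group means. Log2 fold changes kept their sign in 15 members, among them Trp53, Ccng1, Ddit4, Sesn1, Sesn2 and Tnfrsf10b, and turned in at least 1 alternative in the other 21. Over the alternatives the limma adjusted p of Ddit4, with edgeR and DESeq2 included, ran from 0.428 to 0.9999 and its log2 fold change from 0.14 to 0.60. The members listed at an unadjusted p under 0.05 numbered 0 to 1 higher and 0 to 1 lower when 1 library was left out: Ddit4 was lost without KO4, KO5, WT5, WT7 or WT8, Sesn1 was listed lower without KO7 (log2 fold change -0.71, limma adjusted p = 0.428) and Ckap2 without WT5 (-0.32, limma adjusted p = 0.827).

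Without KO4 and KO5 together, members at an unadjusted p under 0.05 numbered 0 higher and 5 lower, and all genes called 0 higher and 1 lower, with 167 higher at an unadjusted p under 0.05. The signs that turned there were Mdm4 -0.060, Cdkn1a -0.0035, Phlda3 -0.27, Zmat3 -0.035, Fas -0.21, Gdf15 -0.29, Rps27l -0.0092, Ptprv -0.26, Abhd4 0.019, Ppm1d -0.016, Pidd1 -0.061, Dcxr 0.17, Fdxr 0.0004 and Xpc -0.012 in log2 units. Over 6 libraries with header numbers 5, 7 and 8 in both genotypes, deviations of same-numbered libraries had correlations across genes of -0.06, 0.09 and -0.05. Between libraries of unlike number the correlations ran from -0.19 to 0.18. So few pairs cannot show whether libraries with the same header number were paired. With a replicate block on that number, all genes called were 0 higher, those at an unadjusted p under 0.05 were 216 higher and 159 lower, Ddit4 was listed higher, 1 member was listed lower (Tnfrsf10b, log2 fold change -0.35), and the signs that turned were Mdm4 -0.078, Phlda3 -0.048, Fas -0.13, Btg2 0.018, Gdf15 -0.10, Ptprv -0.41, Abhd4 0.034 and Ppm1d -0.024. Plk3 turned to 0.0031 with TMM factors, 0.029 by edgeR and 0.025 by DESeq2, and Xpc to -0.0011 by DESeq2. Leaving out 1 library turned the sign of 16 members, whose ranges were Mdm4 -0.033 to 0.056, Plk3 -0.18 to 0.20, Ptprv -0.095 to 0.50, Ppm1d -0.008 to 0.13, Cdkn1a -0.029 to 0.19, Phlda3 -0.10 to 0.17, Zmat3 -0.068 to 0.042, Gdf15 -0.071 to 0.17, Xpc -0.050 to 0.041, Eda2r -0.13 to 0.094, Perp -0.045 to 0.071, Psrc1 -0.16 to 0.044, Ckap2 -0.32 to 0.0055, Fas -0.13 to 0.16, Abhd4 -0.19 to 0.029 and Mdm2 -0.17 to 0.053. The cause of these turns was not tested.

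Over all genes, DESeq2 called 8 higher and 1 lower, and leaving out 1 library gave 0 to 1 higher. At an unadjusted p under 0.05, genes higher numbered 776 with no filter, 279 with a mean of at least 50, 724 by edgeR, 838 by DESeq2 and 187 to 982 with 1 library left out; genes lower numbered 509 with no filter and 163 to 915 with 1 library left out. The fewest reads of a member in a library were 8 for Ptprv, 70 for Ddb2 and 74 for Gdf15, where counting error is largest.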
